A study of Homo sapiens with 2 samples.

Results

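The central domain of human 18S rRNA, which forms the core of the small ribosomal subunit, was taken as the positions after 667 up to and including 1200. It includes expansion segment ES6S. Of 1690 positions of 18S rRNA and 5047 positions of 18S and 28S rRNA listed with reads, 482 lay in this domain. The members were defined by position alone, but with earlier results of these data known. The deposited table names no domains or helices, so the limits are those of the rule, and the ends of ES6S are not marked in the data. The values are counts of reads that mark RNA fragments ending in a cyclic phosphate. RtcB, a ligase acting on such ends, attached an adapter to them before reverse transcription, PCR and sequencing. The material was total RNA of A549 cells, an established human lung carcinoma line. Cells of one library were transfected for 1 h with 1 µg/mL of poly I:C, an artificial RNA duplex. Those of the other were mock-transfected and received only the carrier, Lipofectamine, which the poly I:C cells received too. The labels give no other treatment and no altered gene in either library. With 1 library per condition there is no spread between replicates, no test between conditions and no p-value. Each rRNA has many near-identical gene copies, so a position stands for all of them. The table does not say how positions are numbered, or which nucleotide of a fragment end they refer to.

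The central domain forms the platform of the small subunit. ES6S, one of the larger insertions that distinguish eukaryotic from bacterial small-subunit RNA, is built of several helices on the solvent-facing side of the subunit. A cyclic phosphate arises when the free hydroxyl beside a phosphodiester bond attacks it, in cleavage by many endoribonucleases or in chemical hydrolysis. Double-stranded RNA leads cells to make short oligoadenylates that activate RNase L, an endoribonuclease which leaves such ends and can cut rRNA. The labels describe no sample lacking a nuclease, so the part of any enzyme in the values given here was not tested.

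The domain had 502604 reads in the poly I:C library and 144644 in the mock library. All listed rRNA positions together had 3764202 reads in the poly I:C library and 3079346 in the mock library, and counts were divided by these sums. For the summed domain this gave a poly I:C to mock ratio of 2.84 (95% counting interval 2.83 to 2.86). The domain supplied 38.9% (38.8 to 39.0) of the 18S reads in the poly I:C library and 20.0% (19.9 to 20.1) in the mock library. The 18S positions before it held 37.7% of the 18S reads in the poly I:C library and 41.1% in the mock library, and their scaled reads had a ratio of 1.34. Those after it held 23.5% in the poly I:C library and 38.9% in the mock library, and their scaled reads had a ratio of 0.884. Intervals are exact and treat reads as independent. No molecular identifiers are described, and PCR copies of a molecule are not independent, so the intervals cover counting error only.

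A few neighbouring positions held most of the domain's poly I:C reads. The 16 positions from 10 nt before to 5 nt after position 771 had 331526 reads in the poly I:C library and 932 in the mock library (ratio 291, interval 273 to 311). They made up 66.0% of the domain's reads in the poly I:C library and 0.644% in the mock library. Without them the domain had a ratio of 0.974 (0.967 to 0.981). Its share of the remaining 18S reads was then 17.8% in the poly I:C library and 19.9% in the mock library. The stretch was known from earlier results of these data when it was set apart.

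**Figure D1:**
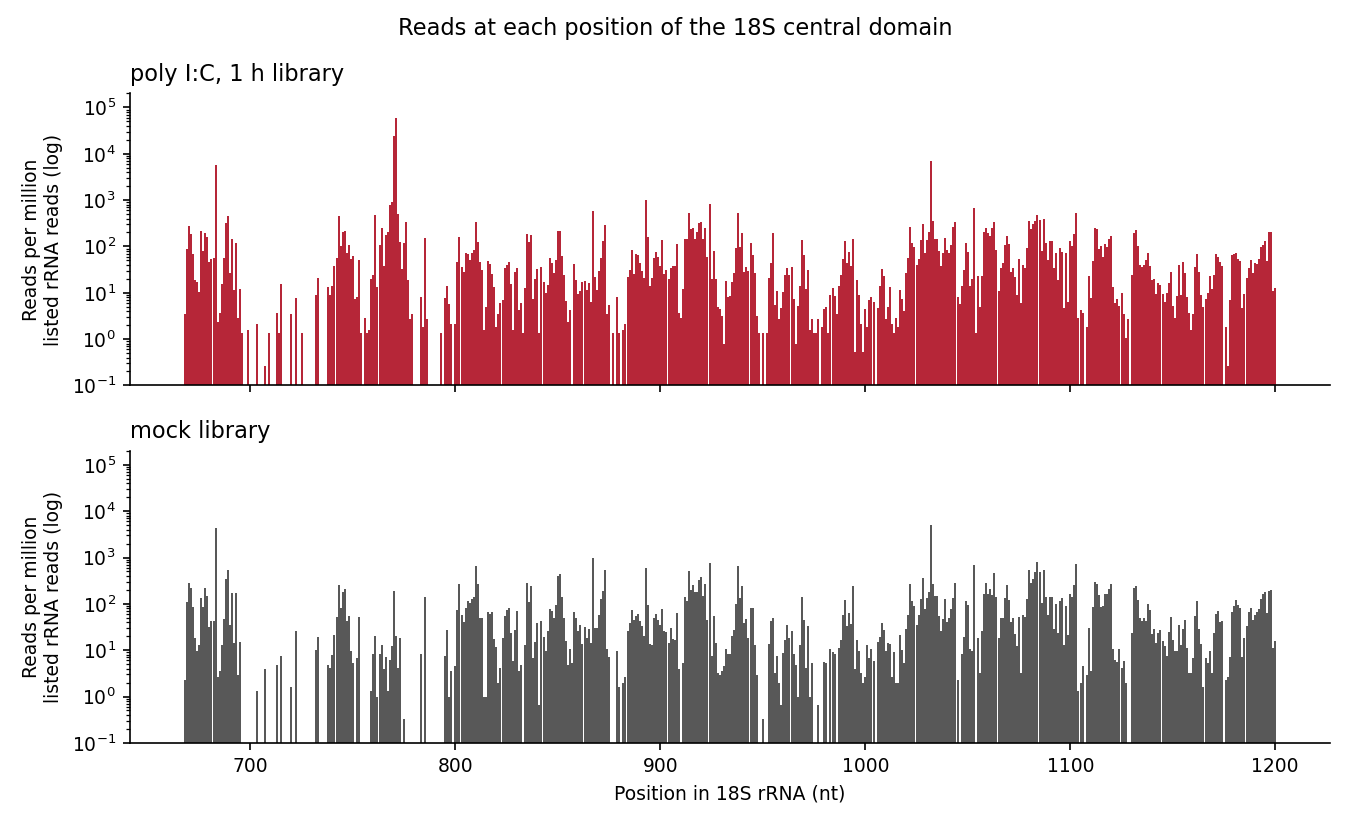
Reads per 1000000 listed rRNA reads (log axis) at each position of the 18S central domain, with the poly I:C library in the upper panel and the mock library in the lower one. In the poly I:C library positions 770 and 771 stand above the sites at 683 and 1032, and the rest of the group around 771 lies below these sites. In the mock library the group is low while 683 and 1032 are the tallest lines.

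Position 771 was the most frequent site of the domain in the poly I:C library, with 224713 reads there and 63 in the mock library. It ranked 1 among all 18S positions in the poly I:C library and 980 in the mock library. Position 770 had 91335 reads in the poly I:C library and 575 in the mock library. Their order differed between the libraries. Position 771 had 2.46 times the reads of 770 in the poly I:C library, but 0.110 times in the mock library. Position 770 was the only one of the 16 with over 100 mock reads. Together the pair held 95.3% of the reads of the 16 positions in the poly I:C library and 68.5% in the mock library. The ratio of the pair was 405 (375 to 439).

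All 13 compared positions among the other 14 of the stretch were higher as well, but the rule for comparing positions favoured this outcome. That rule asks for a minimum of reads over both libraries together. Mock reads were few here, such as 13 at 772 and 1 at 775, so each position met the minimum only with its poly I:C reads. For those with the fewest mock reads a high ratio follows from the minimum alone. The sums given next do not depend on it. Summed, the 14 had 15478 reads in the poly I:C library and 294 in the mock library (ratio 43.1, interval 38.4 to 48.5). On the 5′ side of the pair, 9 positions had a ratio of 40.9 (35.8 to 46.9). On the 3′ side, 5 positions had a ratio of 50.1 (39.5 to 64.6), so the intervals of both sides overlap. Within the 5′ side the ratio of the position 10 nt before 771 was 24.1 (18.7 to 31.6), with 1828 reads in the poly I:C library and 62 in the mock library. The ratio of 764 was 19.5 (14.2 to 27.5), and that of 766 was 25.3 (16.6 to 40.6). Position 769 had 3505 reads in the poly I:C library and 37 in the mock library (ratio 77.5, interval 56.1 to 110). Between them, position 765 was at 9.48 (5.25 to 18.8), a value chosen after it was seen, as were those of 773 and 777 and the bands of 10 nt given next.

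On the 3′ side the reads did not decline evenly with distance from 771. Position 772 had 1903 reads in the poly I:C library and 13 in the mock library. Position 773 had 481 reads in the poly I:C library and 55 in the mock library (ratio 7.15, interval 5.40 to 9.64), the lowest of the 15 compared positions in the stretch. Position 774 had 121 reads in the poly I:C library and 0 in the mock library, which is at least 33.0-fold higher against a floor of 3 mock reads. Reads then increased again, to 452 and 1272 in the poly I:C library at 4 and 5 nt after 771, while the mock library had 1 and 0 there. Position 777, next to them, had 72 reads in the poly I:C library and 0 in the mock library. Summed ratios were lower on either flank, where 1 site supplied most of the mock reads. The 10 nt before the stretch had 439 reads in the poly I:C library and 209 in the mock library (ratio 1.72, interval 1.45 to 2.04). The 10 nt after the stretch had 722 reads in the poly I:C library and 457 in the mock library (ratio 1.29, interval 1.15 to 1.46). Before the stretch, position 753 had 190 of these reads in the poly I:C library and 159 in the mock library. After it, position 785 had 580 in the poly I:C library and 431 in the mock library. Single flank positions with few reads were as high as some inside the stretch. Position 759 had 74 reads in the poly I:C library and 4 in the mock library (ratio 15.1, interval 5.67 to 57.0), and position 777 was at least 19.6-fold higher. These 4 flank positions were picked with their values in view.

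**Figure D2:**
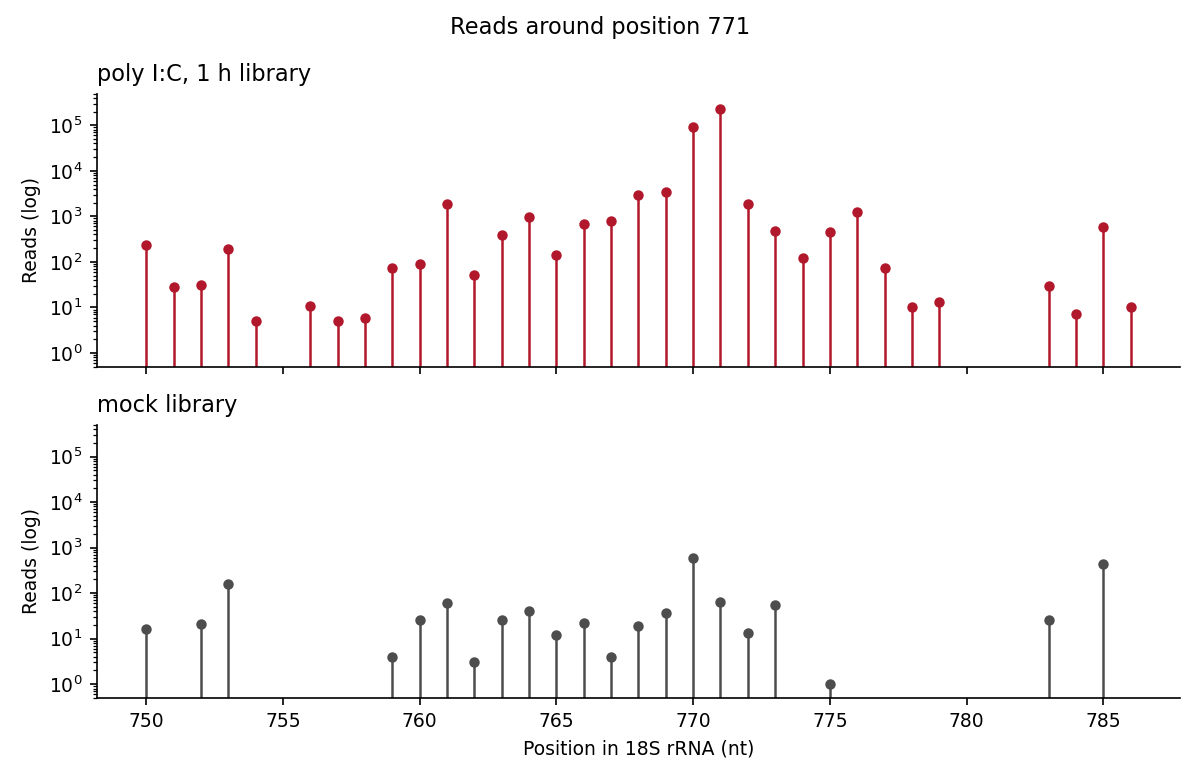
Reads (log axis) at positions from 21 nt before to 19 nt after position 771, in the poly I:C library (upper panel) and the mock library (lower panel), with positions of 0 reads left blank. Position 771 is highest in the poly I:C library and position 770 in the mock library, with the flanks of the stretch far below its top in the upper panel.

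Single positions were compared where both libraries together had at least 100 reads. This left 306 of the 482 listed positions, and the other 176 were too thinly covered. A position was counted as higher at a ratio of at least 2 and as lower at a ratio of at most 0.5. By this rule 26 of the 306 were higher, or 8.50%, beside 8.18% of all 2750 compared positions of both rRNAs. The stretch of neighbouring positions set apart above held 15 of the 26. Without that stretch 11 of 291 were higher, or 3.78%. At least 10-fold higher were 14 of 306, or 4.58%, beside 2.84% of all. Without the stretch this was 1 of 291, or 0.344%. The stretch was left out with its high values known, so both shares without it had to fall. The shares of all keep every high position, so those without the stretch cannot be ranked against them. Lower were 13 of 306, or 4.25%, beside 10.1% of all, and 0 were at least 10-fold lower. In the 18S positions before the domain, 24 of 397 were higher and 26 lower, and in those after it 19 of 387 were higher and 29 lower.

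Every ratio moves by 1 factor when another total is used to scale the libraries. With 18S reads as the total each ratio is multiplied by 0.683, which gave 18 higher and 92 lower positions. Scaling by the median ratio multiplies by 1.24 and gave 38 higher and 6 lower. Higher positions were 66.7% of the calls as given above, 16.4% on 18S reads, 86.4% on the median ratio and 42.6% on the 18S reads outside the domain. Over all compared positions of both rRNAs 225 were higher and 277 lower as scaled above. Counts over all positions under the other scalings are not given, so those shares have no background beside them. The median ratio of the 306 positions was 0.906, a log2 value of -0.14, beside 0.807 and -0.31 over all compared positions. It was 0.853 in the 18S positions before the domain, 0.842 in those after it and 0.768 in 28S rRNA. The counting interval lay wholly above 1 at 72 of the 306 positions and wholly below 1 at 132, and held 1 at 100. The remaining 2, without mock reads, had only a lower bound. These interval counts hold for the main scaling alone. None over all compared positions is given beside them, so whether the split is particular to the domain was not tested.

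**Figure D3:**
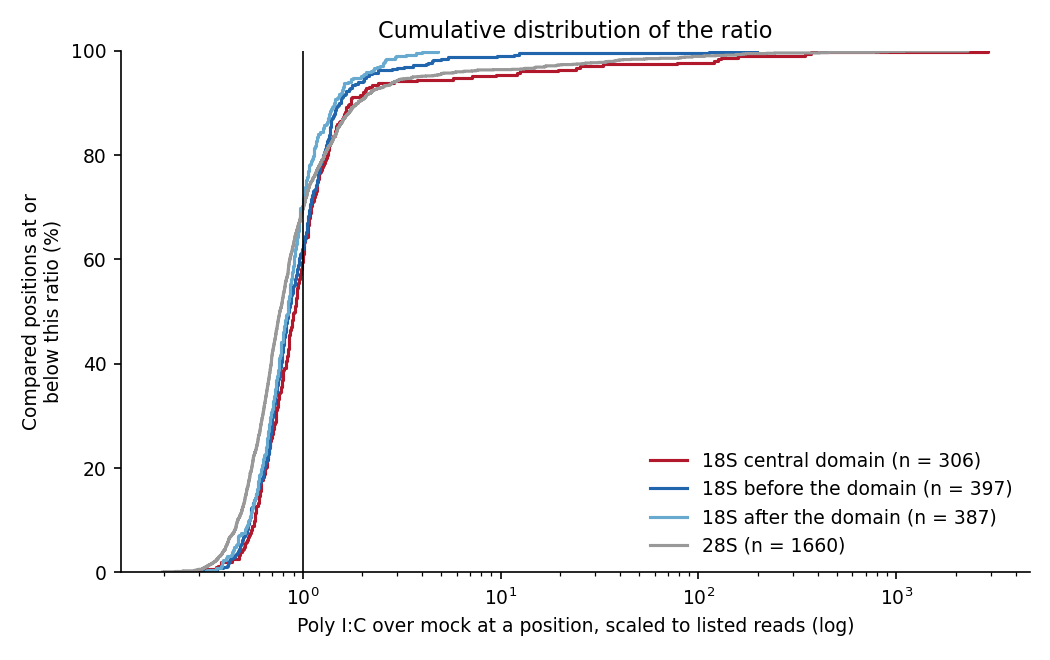
Cumulative share (%) of compared positions at or below each ratio of poly I:C over mock (log axis), for the 18S central domain, the 18S positions before and after it, and 28S rRNA. The curves of the 18S regions run close together below a ratio of 1, and the central domain and 28S rRNA have the longer tails of high ratios, up to 2918 in the domain.

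Higher and lower positions lay in different places. Of the 14 positions at least 10-fold higher, 13 belonged to the stretch around 771 and the last was position 750, with 238 reads in the poly I:C library and 16 in the mock library, singled out after its value was seen. The 11 higher positions outside the stretch were spread between 749 and 1168, and 10 of these had ratios from 2.01 to 5.75. Of the 13 lower positions, 12 lay between 807 and 871 and 1 at position 722, which had 29 reads in the poly I:C library and 81 in the mock library (ratio 0.293, interval 0.185 to 0.453).

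**Figure D4:**
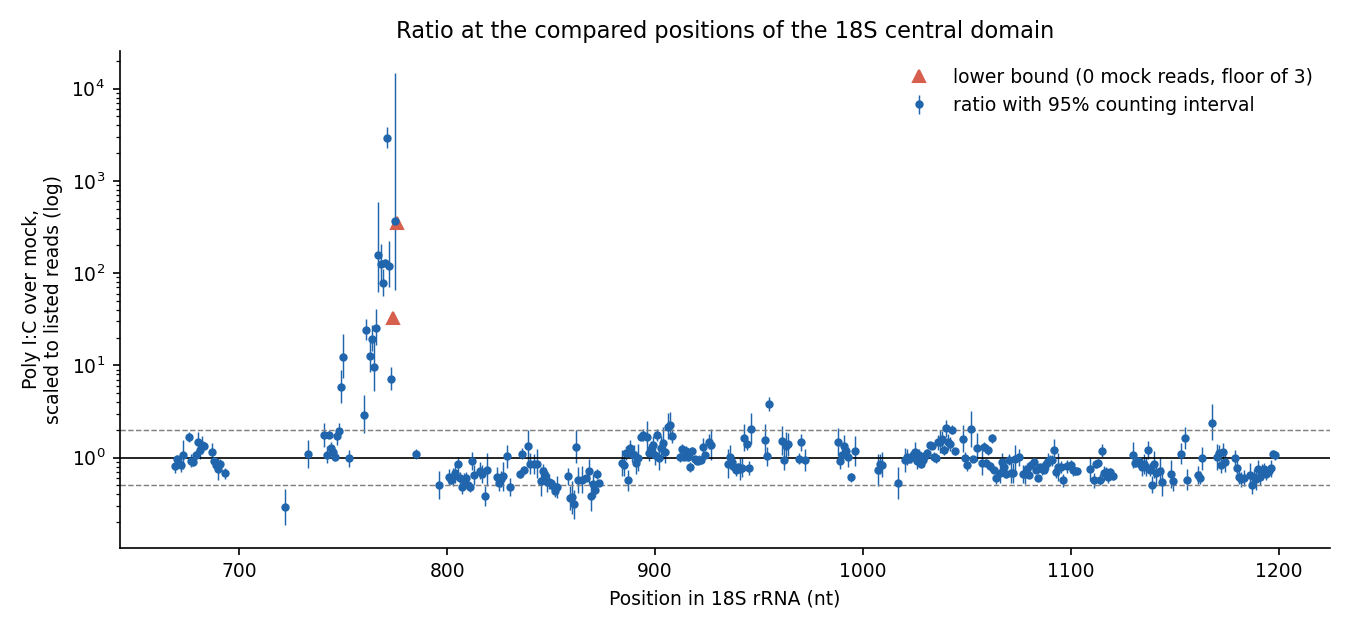
Ratio of poly I:C over mock (log axis) at the 306 compared positions of the 18S central domain, with 95% counting intervals, the line at 1 and dashed lines at 2 and 0.5. Triangles are lower bounds at the positions without mock reads. Values climb from about position 748 to a top at 771 with a break in between, lie below 1 over most of 791 to 872, and lie mostly between 0.5 and 2 beyond.

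The domain was then divided into 13 consecutive windows of 41 nt, with all listed reads summed in each. The window from 750 to 790 had 332925 reads in the poly I:C library and 1614 in the mock library (ratio 169, interval 161 to 177). It was the 1 window of 13 past 2-fold, beside 22.7% of all 172 windows of both rRNAs. At least 2-fold lower were 0 of 13, beside 1.16% of all. The other 12 windows ran from 0.575 to 1.41. Windows below 1 numbered 6 and windows above 1 numbered 7.

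Directly beyond this window, ratios were low over 82 nt, a span set apart after its values were seen, as were the last 3 windows, the runs and the stretch of unlisted positions described further on. The window from 791 to 831 had 5799 reads in the poly I:C library and 8249 in the mock library (ratio 0.575, interval 0.556 to 0.595). The next, from 832 to 872, had 8805 reads in the poly I:C library and 11917 in the mock library (ratio 0.604, interval 0.588 to 0.621). Of 53 compared positions in these 82 nt, 49 had a ratio under 1, or 92.5%, beside 67.4% of all compared positions. The counting interval lay below 1 at 43 of them, held 1 at 10 and lay above 1 at 0. No interval count over all compared positions is given beside these, so whether they are particular to the span was not tested. The median ratio was 0.602, against 0.976 at the 253 compared positions in the rest of the domain. In 18S rRNA outside the domain 1 of the 41-nt windows was at most 0.6, at 0.511, so a window this low also occurred there.

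Within these 82 nt the order of the sites was alike in both libraries while their level was lower with poly I:C. Position 867, the most frequent, had 2191 reads in the poly I:C library and 2977 in the mock library (ratio 0.602, interval 0.569 to 0.636). Position 810 had 1243 reads in the poly I:C library and 2032 in the mock library, a ratio just above 0.5 (0.466 to 0.537). The adjacent positions 859, 860 and 861 had 70, 36 and 42 reads in the poly I:C library and 156, 79 and 110 in the mock library, and all had ratios between 0.312 and 0.373. Position 818 stood at 0.385 (0.299 to 0.493), 852 at 0.440 (0.374 to 0.516), 869 at 0.387 (0.262 to 0.561) and 871 at 0.442 (0.373 to 0.523). Reads per 1000000 listed reads, plus 1 and on a log2 scale, were compared across the 53 positions. Pearson's r between the libraries was 0.952 and Spearman's rho was 0.946. The points share their library and its depth, and neighbouring positions are not independent.

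The 2 sites with the most mock reads in the domain, 1032 and 683, ranked alike in both libraries. The third, 867, ranked 53 among 18S positions in the poly I:C library and 28 in the mock library. Position 1032 had 25816 reads in the poly I:C library and 15572 in the mock library, and ranked 7 among 18S positions in both. Position 683 had 21939 reads in the poly I:C library and 13565 in the mock library, and ranked 9 in the poly I:C library and 8 in the mock library. Their ratios were 1.36 (1.33 to 1.38) and 1.32 (1.29 to 1.35), and both turned below 1, to 0.926 and 0.903, when 18S reads were the total. The reads of 683 over those of 1032 were 0.850 in the poly I:C library and 0.871 in the mock library.

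These 2 sites were sharp in both libraries. At 683 the position before held 0.975% as many reads as the site in the poly I:C library and 0.951% in the mock library. The position after it had 9 reads in the poly I:C library and 8 in the mock library. At 1032 the position after held 5.25% in the poly I:C library and 5.27% in the mock library. At 771 the position before held 40.6% as many reads in the poly I:C library and 913% in the mock library. The position after it held 0.847% in the poly I:C library and 20.6% in the mock library.

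Other frequent sites had ratios on either side of 1. Position 893 had 3803 reads in the poly I:C library and 1868 in the mock library (ratio 1.67, interval 1.58 to 1.76). It opened a run of 8 compared positions up to 901 with ratios from 1.06 to 1.76. Position 743 had 1706 reads in the poly I:C library and 790 in the mock library (ratio 1.77, interval 1.62 to 1.92). It lay in a run of 11 compared positions from 733 to 750, all above 1, in which positions 748, 749 and 750, also chosen after their values were seen, stood at 1.95, 5.75 and 12.2. Position 955 had 718 reads in the poly I:C library and 156 in the mock library (ratio 3.77, interval 3.16 to 4.51). Among compared positions after the stretch around 771 its ratio was the highest. The next was that of position 1168 at 2.40 (1.56 to 3.79), on 85 reads in the poly I:C library and 29 in the mock library, also chosen after its value was seen.

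Position 924 stood at 1.07 (1.02 to 1.13), 1053 at 0.976 (0.922 to 1.03), 1132 at 0.920 (0.834 to 1.02) and 1198 at 1.06 (0.951 to 1.18). The intervals of 1053, 1132 and 1198 held 1, and each of these 4 sites crossed 1 under at least 1 other scaling. Position 938 was at 0.796 (0.748 to 0.848) and position 994 at 0.615 (0.550 to 0.688).

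From 1078 to the end of the domain the windows were again below 1, at 0.744, 0.787 and 0.794. Here 69 of 81 compared positions had a ratio under 1, or 85.2%, beside 67.4% of all compared positions, and 0 were at least 2-fold lower, beside 10.1% of all. Position 1084 had 1789 reads in the poly I:C library and 2424 in the mock library (ratio 0.604, interval 0.568 to 0.642). Position 1103 stood at 0.716 (0.673 to 0.761) and position 1120 at 0.637 (0.573 to 0.707). The window from 750 to 790 stayed above 1 and these 3 windows and the 2 from 791 to 872 stayed below 1 under all 4 other scalings. The other 7 windows crossed 1 under at least 1 of them.

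**Figure D5:**
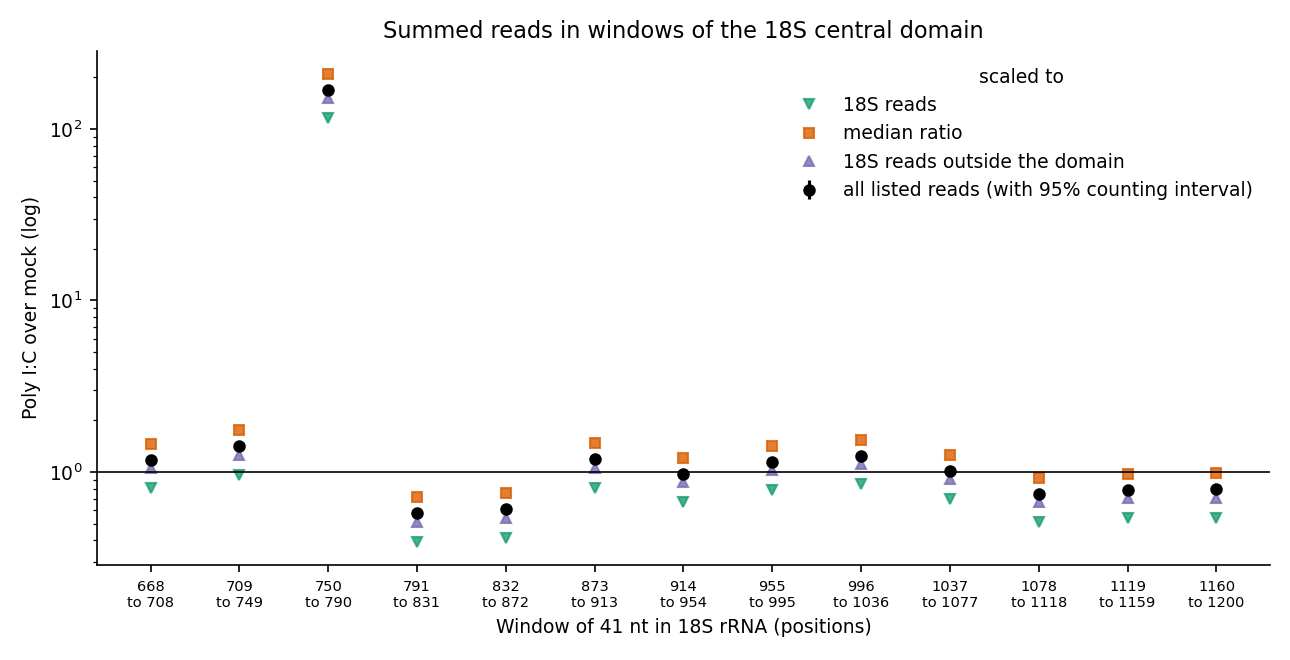
Ratio of poly I:C over mock (log axis) for summed reads in the 13 windows of 41 nt, scaled to all listed reads (circles, with 95% counting intervals that are mostly narrower than the symbol) and under 3 other scalings. The window from 750 to 790 lies over 100 under each of the 4 scalings shown, and the windows from 791 to 872 and from 1078 to 1200 lie below 1 under each.

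Few positions carried most of the reads in the poly I:C library. There 2 positions held 50% of the domain's reads, against 30 positions in the mock library. Without the stretch around 771 it took 24 positions in the poly I:C library and 30 in the mock library. Of the 10 most frequent positions of the domain in each library, 6 were shared. On the same log2 scale, Pearson's r across the 306 compared positions was 0.606 and Spearman's rho was 0.757. Without the 15 compared positions around 771 these were 0.919 and 0.917, and over the 784 compared 18S positions outside the domain 0.903 and 0.911. The 15 were left out with their high ratios known, which by itself raises the coefficients. The 784 kept all their positions, 4 of them at least 10-fold higher, so these sets are not alike. All these coefficients describe positions that share 2 libraries and are no test.

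Some stretches of the domain yielded almost no fragment ends in either library. Of its positions 51, or 9.57%, were unlisted, which means fewer than 5 reads in both libraries. The share was 11.8% in the 18S positions before it and 8.82% in those after it up to the annotated end at 1869. Listed 18S positions ran past that end, to 1904. Of the 620 listed after the domain, 610 lay up to 1869, and the other values given for these positions use all 620. Unlisted positions were densest from 697 to 737, where 29 of 41 were missing and the 12 listed had 257 reads in the poly I:C library and 230 in the mock library. Listed positions with 0 mock reads numbered 31 of 482, of which 12 lay between 750 and 790. Over both rRNAs they numbered 417 of 5047, with 28 of 588 before the domain in 18S rRNA and 28 of 620 after it. Such positions are listed only through their poly I:C reads. Positions with 0 poly I:C reads numbered 82 over both rRNAs. The single listed position with 0 poly I:C reads, 857, had 16 mock reads and is named for that value.

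The positions at the limits had few reads inside the domain. Its first position had 13 reads in the poly I:C library and 7 in the mock library (ratio 1.52, interval 0.563 to 4.50). Position 667, just outside, had 1952 reads in the poly I:C library and 1825 in the mock library (ratio 0.875, interval 0.820 to 0.933). Position 1200 had 48 reads in the poly I:C library and 49 in the mock library. Position 1201, just outside, had 110 reads in the poly I:C library and 101 in the mock library.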

How the data were processed

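Raw read counts per rRNA position were deposited for each library, per the file headers. The genome build in the submitters' processing notes is hg19. Which aligner, counting step and rRNA reference were used is not given in the sources used here. Positions are therefore printed as deposited, without genome coordinates or sequence. The authors' deposited fold, a ratio with 0.5 added to both counts and unscaled for depth, was checked against the counts and not used. Another 2 value columns, the authors' scores, were not used. Members were 18S positions 668 to 1200. Counts were divided by each library's listed reads. Ratios carry exact conditional binomial intervals and shares exact Clopper-Pearson intervals, at 95%. A count of 0 was set to 3 reads and the ratio given as a bound. Library depth beyond the listed positions is unknown. The calculation was tested on simulated counts with counting error only, which is what the intervals assume. That test therefore does not cover PCR copies or spread between replicates. Named positions were the 12 highest and 8 lowest ratios, the 10 most frequent per library, the most frequent per window and library, and the positions at the limits. The members, lists and limits were chosen with earlier results of these data known. Alternatives were other scalings, read minimums, thresholds, limits and windows. Python 3.11.15 and scipy 1.17.1 were used. The 18S length is that of RNA18SN5 in RefSeq.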

Additional observations from a re-analysis of the deposited data

How the results depend on the processing

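No paired analysis was possible because 1 library stands for each condition, and no replicate could be left out. Scaling changed the counts of lower positions and the summed ratio. The 13 lower positions became 92 on 18S reads, 6 on the median ratio and 27 on the 18S reads outside the domain. The summed ratio of 2.84 became 1.94, 3.52 and 2.54 under these scalings. It became 2.93 when the 10 most frequent positions of either library, 14 in all, were left out of the totals but not of the domain's sum. The median log2 ratio became -0.69, 0.17 and -0.30 under the first 3, and so turned above 0 on the median ratio. On 18S reads 2 windows were at least 2-fold lower. Without the 16 positions around 771, 11 of 291 compared positions were higher, or 3.78%, and 1 at least 10-fold. The summed ratio then turned to 0.974, and the domain's share of 18S reads was 17.8% in the poly I:C library and 19.9% in the mock library. Asking for 20 reads left 47 higher positions and 31 lower ones. Asking for 1000 left 8 and 2, with 7 at least 10-fold higher, and dropping the minimum left 59 and 39. At 4-fold, 17 positions were higher and 0 lower. Counting intervals lay wholly above 2 at 18 positions and wholly under 0.5 at 4. Counts over all positions or windows under these other scalings, minimums and thresholds are not given beside them. With limits 20 nt further in, the summed ratio was 3.17 and the shares 36.4% in the poly I:C library and 16.8% in the mock library. Over compared positions alone these were 2.88, 39.0% and 19.9%. Windows started 20 nt later gave 2 of 13 at least 2-fold higher, also without a count over all windows beside it. Where an alternative uses fewer positions or another total, that is its construction, and no other cause was tested. Of 152 values at 38 named positions under 4 scalings, 9 crossed 1, at 6 positions, and 0 of these had been at least 2-fold higher or lower. Few mock reads limit the ratios near 771: at 4 nt after it the interval runs from 66.0 to 14637.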
